A study of Mus musculus with 9 samples.

Results

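Cochleae of mice that had received an adenine base editor were compared with untreated cochleae of the same mutant genotype. The members are the 3 treated and 3 untreated homozygous libraries, 6 of the 9 libraries in the series, and the remaining 3 libraries came from Mpzl2 WT mice and were not used here. All 6 libraries were labelled hMPZL2Q74X/Q74X, that is, homozygous for a humanized MPZL2 gene with a nonsense variant. Treated mice had been injected at postnatal day 2 with AAV-ie-ABE8eWQ-SpRY:sgRNA3 through the round window membrane. AAV-ie is an adeno-associated virus capsid made for inner ear delivery, ABE8e is an evolved adenine base editor that turns A to G in DNA, SpRY is a Cas9 variant with little demand on the neighbouring motif, and sgRNA3 is the guide. Every library was made from total RNA of the membranous labyrinth, the soft tissue inside the bony cochlea, at postnatal day 28. The labels name no mice injected with an empty vector, another guide or the carrier fluid alone, so effects of virus, editor, injection and the edit itself cannot be told apart. The labels call the libraries biological replicates and do not say how many animals each pooled.

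Cells sense foreign DNA and RNA through receptors in the cytosol, and the resulting interferons bind receptors that switch on STAT and IRF transcription factors. STAT and IRF factors then raise antiviral proteins, guanylate-binding proteins and the machinery that shows peptides to T cells. Class I molecules show peptides from inside a cell to CD8 T cells, whereas class II molecules show peptides taken up from outside to CD4 T cells. The cochlea holds resident macrophages and few lymphocytes in the undisturbed state. MPZL2 belongs to the immunoglobulin superfamily and helps cells adhere, and people who lack it have progressive hearing loss.

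Values are given for homozygous libraries 1 to 3 in order (untreated), for treated libraries 1 and 2 (the pair) and for treated library 3 (library 3). Treated libraries 1 and 2 were closer to each other than any other pair of libraries. Of 13899 genes at a mean of 5 TPM or more, 82.5% differed by less than 0.2 on the log2 scale, against 33.9% to 46.2% between homozygous libraries. Since this gap was smaller than that of other replicates, their mean TPM stood for 1 sample, and the tests set 2 treated samples against 3 homozygous samples. TPM is a level per transcript length with every library brought to the same total. It keeps no count of reads, so the sequencing depth is unknown. Tests used limma on log2(TPM + 1) over 17102 genes with an adjusted p threshold of 0.05, and a gene past it is said to have risen or fallen. The fold changes are differences of means on that scale, which understates change in genes of low level. A gene under 1 TPM in all, or all but 1, libraries of 1 group depends on the other group to pass the filter on low values. Its difference is therefore given as a description with no p, and counts of calls that hold such genes are descriptions too. Where a call did not hold with 1 library left out, the highest adjusted p reached and those libraries are given beside it.

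Genes of the inner ear were present in all 6 libraries, such as Coch, a secreted protein of the spiral ligament, at 7698, 7639 and 6109.5 TPM untreated, 4141 and 4004 TPM in the pair and 3735 TPM in library 3. The treated libraries differed from each other in sex-linked and brain genes. Xist, the RNA that silences one X chromosome in females, was at 162, 0.624 and 0.906 TPM untreated, 124 and 129 TPM in the pair and 171 TPM in library 3. The Y-linked gene Eif2s3y was at 0.959, 123 and 101 TPM untreated, 43.1 and 41.2 TPM in the pair and 0 TPM in library 3. Ddx3y, also Y-linked, was at 0.498, 49.5 and 50.3 TPM untreated, 23 and 18.8 TPM in the pair and 0.0858 TPM in library 3. The treated pair therefore held both kinds of RNA, whereas homozygous library 1 and treated library 3 had high Xist with low Y-linked genes, and homozygous libraries 2 and 3 the reverse. Tbr1, a transcription factor of cortical projection neurons, was at 0, 0 and 0.362 TPM untreated, 27.3 and 26.4 TPM in the pair and 0 TPM in library 3. Camk2a, the kinase of forebrain excitatory synapses, was at 0.471, 0.503 and 0.554 TPM untreated, 745 and 722 TPM in the pair and 8.13 TPM in library 3. Over 22 tested forebrain neuron genes the median log2 difference was 1.86 in the pair, against 0.29 for all tested genes. In library 3 it was 0.38, against 0.09 for all tested genes. The summed level of the forebrain genes was 1513, 2455 and 1115 TPM in the homozygous libraries, 3551 and 3499 TPM in the treated pair and 2808 TPM in library 3, so library 3 also lay above every untreated library in this sum. Homozygous library 2 reached 2455 TPM with Tbr1 at 0 and Camk2a at 0.503 TPM, so the sum there came from other genes of the list. Tbr1 and Camk2a were chosen after their values were seen, and results are given for the pair and for library 3 apart.

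**Figure D1:**
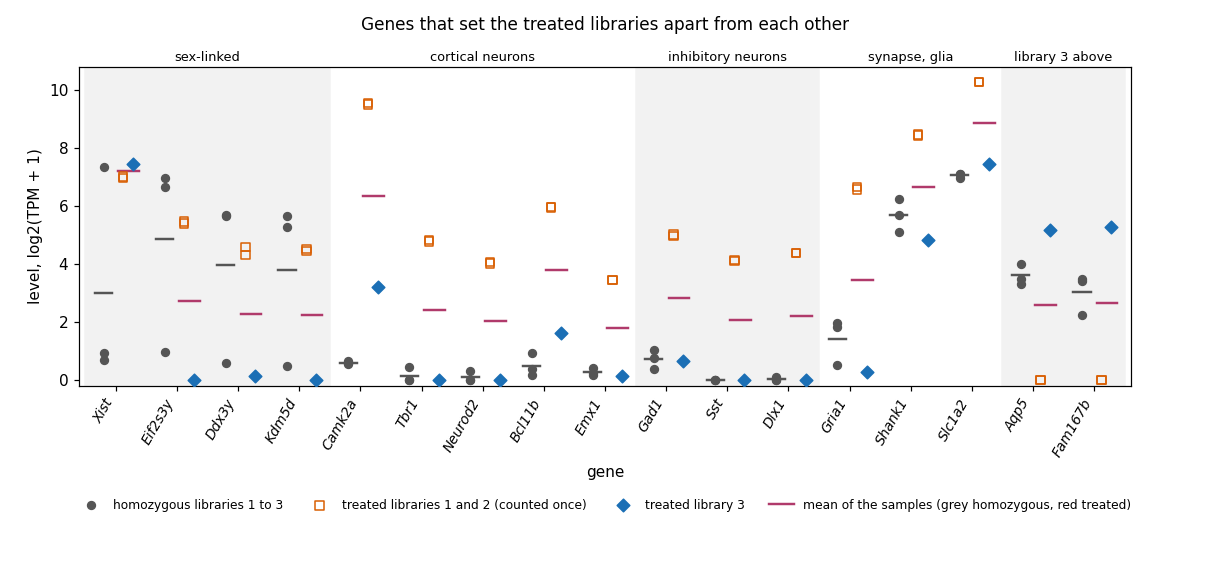
Levels of sex-linked and brain genes and of 2 genes with the opposite pattern in each library, as log2(TPM + 1). Points are libraries, with the treated pair as open squares and library 3 as a diamond, and bars are means of the samples. Camk2a stood at 745 and 722 TPM in the treated pair and at 8.13 TPM in library 3.

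In the treated samples 589 of 17102 genes rose (3.44%) and 165 fell (0.965%). With the treated pair as the only treated sample 2249 rose (13.2%) and 735 fell (4.3%), and with library 3 as the only one 180 rose (1.05%) and 42 fell (0.246%). Both of these comparisons use the same 3 homozygous libraries and take the spread between samples from those libraries alone. Counts of calls with the pair alone or library 3 alone, here and below, hold no spread of treated samples. They are descriptions and not tests of replicates. Samples of the groups did not overlap for 5001 genes that were higher (29.2%) and 2700 that were lower (15.8%) in treated. The median log2 fold change of all tested genes was 0.20, and it was 0.03 after median-of-ratios scaling, which gave 411 genes higher and 236 lower. Homozygous libraries weighed heavily on the counts: without libraries 1, 2 and 3 in turn, 62, 158 and 67 genes rose and 1, 25 and 3 fell.

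The first 6 promoters are shown because they belong to genes of the interferon response and of antigen presentation that rose in both treated samples, and the last because it belongs to a gene of the standard proteasome that did not pass the test. They are RefSeq windows of GRCm38.p6, from 250 bases before to 50 after a gene's start, in the direction of the gene. Capitals mark matches, on either strand, to the core of the interferon-stimulated response element (GAAANNGAAA, bound by STAT and IRF factors), the gamma-activated site (TTCNNNGAA, bound by STAT dimers) or the Y box (CTGATTGG, an element of class I and class II promoters).
Ifit3 (chr19:34583279-34583578, plus strand): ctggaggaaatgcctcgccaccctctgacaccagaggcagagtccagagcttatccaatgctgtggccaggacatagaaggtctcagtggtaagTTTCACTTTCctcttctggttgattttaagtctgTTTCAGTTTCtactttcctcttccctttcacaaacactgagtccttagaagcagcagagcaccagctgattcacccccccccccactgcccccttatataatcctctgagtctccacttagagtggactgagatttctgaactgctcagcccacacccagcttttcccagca
Gbp2 (chr3:142620413-142620712, plus strand): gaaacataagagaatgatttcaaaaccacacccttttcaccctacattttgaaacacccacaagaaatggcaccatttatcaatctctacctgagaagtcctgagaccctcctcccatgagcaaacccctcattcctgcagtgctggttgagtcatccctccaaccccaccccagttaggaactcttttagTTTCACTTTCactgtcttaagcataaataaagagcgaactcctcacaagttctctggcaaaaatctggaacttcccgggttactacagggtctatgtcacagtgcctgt
Irf1 (chr11:53769764-53770063, plus strand): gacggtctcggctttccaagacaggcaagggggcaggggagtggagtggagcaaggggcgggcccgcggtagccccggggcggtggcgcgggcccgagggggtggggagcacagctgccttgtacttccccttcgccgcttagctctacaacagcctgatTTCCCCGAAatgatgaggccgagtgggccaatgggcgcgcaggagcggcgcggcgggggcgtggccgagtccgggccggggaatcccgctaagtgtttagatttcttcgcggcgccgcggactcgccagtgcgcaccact
Psmb9 (chr17:34187281-34187580, minus strand): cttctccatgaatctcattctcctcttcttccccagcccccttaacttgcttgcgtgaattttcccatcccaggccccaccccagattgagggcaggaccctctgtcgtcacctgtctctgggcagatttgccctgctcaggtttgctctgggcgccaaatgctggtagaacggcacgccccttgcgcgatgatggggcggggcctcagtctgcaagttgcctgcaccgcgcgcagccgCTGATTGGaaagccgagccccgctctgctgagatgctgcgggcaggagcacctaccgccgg
H2-Aa (chr17:34287774-34288073, minus strand): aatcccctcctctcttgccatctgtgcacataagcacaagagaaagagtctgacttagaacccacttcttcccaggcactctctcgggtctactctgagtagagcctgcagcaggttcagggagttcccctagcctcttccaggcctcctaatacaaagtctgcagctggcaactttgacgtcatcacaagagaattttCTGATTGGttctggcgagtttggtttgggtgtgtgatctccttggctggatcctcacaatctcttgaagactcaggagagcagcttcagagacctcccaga
H2-Eb1 (chr17:34305617-34305916, plus strand): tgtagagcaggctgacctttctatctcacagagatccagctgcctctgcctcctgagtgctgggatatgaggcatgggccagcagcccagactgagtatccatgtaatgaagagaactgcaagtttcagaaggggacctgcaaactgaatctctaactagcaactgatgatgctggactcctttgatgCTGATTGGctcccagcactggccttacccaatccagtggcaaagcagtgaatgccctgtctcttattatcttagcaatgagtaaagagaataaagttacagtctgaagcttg
Psmb5 (chr14:54617946-54618245, minus strand): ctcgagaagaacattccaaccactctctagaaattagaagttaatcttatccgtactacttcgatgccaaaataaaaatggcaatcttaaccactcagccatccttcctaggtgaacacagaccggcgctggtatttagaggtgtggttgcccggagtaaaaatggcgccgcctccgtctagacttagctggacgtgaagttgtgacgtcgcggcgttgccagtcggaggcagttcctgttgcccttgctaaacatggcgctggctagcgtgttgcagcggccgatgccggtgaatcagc
The Ifit3 window held 2 response element cores, the first bases of which lay 156 and 122 bases before the start, and that of Gbp2 held 1 at 59 bases. The window of Irf1, from 1 of its 2 starts, held 1 gamma-activated site at 90 bases before the start. The window of its other start, not shown, held no match to the 3 cores. Y boxes began 51 bases before the start of H2-Aa and 62 before that of H2-Eb1. The Y box of Psmb9 began 11 bases before its start and is the same stretch of DNA as the match of Tap1, the divergent neighbour, at 222 bases before its own start. The window of Psmb5 held no match to the 3 cores.

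Response element cores were frequent among the GTPase genes that rose. Of 17 such genes 11 had a RefSeq window, and 10 of 11 held the core, against 3.99% of all 27025 genes with a window. Among antiviral genes that rose, 9 of 17 with a window held it, among class I genes 4 of 11 and among class II genes 1 of 5. Gamma-activated sites were in 6 of the 11 GTPase genes and 6 of the 17 antiviral genes, against 9.55% of all genes with a window, and in 0 of 11 class I genes. Y boxes were in 6 of 11 class I genes and 2 of 5 class II genes, against 4.70% of all genes with a window, and in 0 of the antiviral and GTPase genes. Of 11 constitutive proteasome genes with a window, 1 held a response element core, 1 a Y box and 0 a gamma-activated site. A match describes letters in the window and not binding.

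Sensors of DNA and RNA rose for 9 of 19 tested genes, against 3.44% of all tested genes. Their median log2 fold change was 1.78, against 0.20 for all genes. Zbp1, a sensor of Z-form nucleic acid that can start necroptosis, was at 0.562, 1.19 and 0.973 TPM untreated, 109.9 and 109 TPM in the pair and 112 TPM in library 3. Zbp1 differed by 5.89 on the log2 scale. Its 3 treated libraries were close to each other and far above every untreated one. Ifih1, the long double-stranded RNA sensor MDA5, was at 12.1, 12.5 and 13 TPM untreated, 58.7 and 58.7 TPM in the pair and 53.9 TPM in library 3. Ifih1 rose by 2.08 on the log2 scale (SE 0.23, limma adjusted p = 0.0111, up to 0.0802 without homozygous library 1 or 3). Ddx58, the RNA sensor RIG-I, was at 30.3, 43.2 and 35.9 TPM untreated, 113 and 118 TPM in the pair and 157 TPM in library 3. Ddx58 rose by 1.87 on the log2 scale (SE 0.24, limma adjusted p = 0.0178, up to 0.102 without homozygous library 1 or 3). Trex1, the exonuclease that clears cytosolic DNA, was at 11.6 and 13.9 TPM in the treated pair and 10.2 TPM in library 3, against at most 1.09 TPM in the homozygous libraries. The calls of this list numbered 1, 4 and 2 without homozygous libraries 1, 2 and 3, 9 with the pair alone as treated and 4 with library 3 alone.

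Signal transducers of the interferon pathway rose, but receptors and Janus kinases did not pass the test. Stat2 rose by 2.79 on the log2 scale (SE 0.22, limma adjusted p = 0.00422) and its partner Irf9 by 2.36 (SE 0.18, limma adjusted p = 0.00422). Irf1, an early transcription factor of the interferon response, was at 22.3, 31.6 and 26.4 TPM untreated, 178 and 234 TPM in the pair and 231 TPM in library 3. Irf1 rose by 2.99 on the log2 scale (SE 0.21, limma adjusted p = 0.00307). The receptor subunit Ifngr1 was at 21.3, 23.4 and 19.3 TPM untreated, 34.1 and 32.9 TPM in the pair and 43.2 TPM in library 3 (limma adjusted p = 0.0966), a gene chosen after its values were seen. Ifng, the gene of interferon gamma itself, also chosen so, was listed at 0 in all untreated libraries and at 6.94 and 6.75 TPM in the pair and 2.58 TPM in library 3. In all 8 of 18 tested genes of this list rose, against 3.44% of all tested genes. In each fit without 1 homozygous library 5 of the 18 did.

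Of 25 antiviral effector genes, 23 rose and 0 fell, against 3.44% and 0.965% of all tested genes. Their medians were 2.96 in the pair and 3.18 in library 3. All 25 were higher without overlap, against 29.2% of all tested genes. Ifit1, which binds RNA with foreign caps, was at 19.4, 23.9 and 34.4 TPM untreated, 308 and 288 TPM in the pair and 335 TPM in library 3. Ifit1 rose by 3.60 on the log2 scale (SE 0.26, limma adjusted p = 0.00325). Parp14, an ADP-ribosyltransferase of the interferon response, was at 10.3, 13.8 and 14.6 TPM untreated, 119.9 and 91.8 TPM in the pair and 124 TPM in library 3. Parp14 rose by 3.07 on the log2 scale (SE 0.24, limma adjusted p = 0.00433). Ifit3b, whose reads may be shared with its near copy Ifit3, rose by 3.74 on the log2 scale (SE 0.29, limma adjusted p = 0.00416). Isg15, a ubiquitin-like modifier chosen after its values were seen, was higher in library 3 than in the pair, at 2.09, 3.37 and 0.827 TPM untreated, 19.8 and 22.2 TPM in the pair and 99.1 TPM in library 3. Isg15 rose by 4.01 on the log2 scale (SE 0.71, limma adjusted p = 0.0363, up to 0.165 without homozygous library 1, 2 or 3). The summed level of the list was 279, 417 and 342 TPM in the homozygous libraries, 2782 and 2731 TPM in the treated pair and 3364 TPM in library 3. Calls numbered 10, 16 and 8 without homozygous libraries 1, 2 and 3, 22 with the pair alone as treated and 15 with library 3 alone.

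Guanylate-binding proteins and immunity-related GTPases, which attack the membranes around intracellular microbes, formed the list with the highest median of the 58 lists. Of 18 tested genes 17 rose, against 3.44% of all tested genes, with medians of 4.20 in the pair and 4.47 in library 3. Gbp2 was at 7.36, 4.07 and 5.57 TPM untreated, 238 and 225 TPM in the pair and 241 TPM in library 3. Gbp2 rose by 5.19 on the log2 scale (SE 0.28, limma adjusted p = 0.0013). Gbp6 was at 7.33, 9.6 and 10.9 TPM untreated, 233 and 220.1 TPM in the pair and 264 TPM in library 3. Gbp6 rose by 4.59 on the log2 scale (SE 0.24, limma adjusted p = 0.00124). Gbp3 rose by 4.26 (SE 0.25, limma adjusted p = 0.00153), Gbp4 by 4.04 (SE 0.28, limma adjusted p = 0.003) and Gbp10 by 5.2 (SE 0.39, limma adjusted p = 0.00377) on the log2 scale. All 3 treated libraries were high for each of these. Tgtp1 was at 1.02, 2.02 and 3.04 TPM untreated, 143 and 136 TPM in the pair and 246 TPM in library 3. Tgtp2, a near-identical copy with which it may share reads, was at 13.3, 26.1 and 17.4 TPM untreated, 403 and 379 TPM in the pair and 1180.5 TPM in library 3. Summed over the list the level was 104, 145 and 121 TPM in the homozygous libraries, 2665 and 2555 TPM in the treated pair and 3914 TPM in library 3. Calls numbered 14, 16 and 14 without homozygous libraries 1, 2 and 3, 17 with the pair alone as treated and 16 with library 3 alone.

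Genes of class I antigen presentation rose, peptide transporters and presenting molecules alike. Of 18 tested genes 15 rose, against 3.44% of all tested genes, with medians of 3.20 in the pair and 3.62 in library 3. H2-K1, a classical class I heavy chain, was at 54.6, 74.6 and 60.7 TPM untreated, 925 and 1098 TPM in the pair and 1195 TPM in library 3. H2-K1 rose by 4.11 on the log2 scale (SE 0.20, limma adjusted p = 0.00107). H2-D1, the other, rose by 4.08 (SE 0.27, limma adjusted p = 0.00278). Tap1, a subunit of the peptide transporter, was at 4.3, 8.29 and 5.44 TPM untreated, 266 and 278 TPM in the pair and 203 TPM in library 3. Tap1 rose by 5.11 on the log2 scale (SE 0.31, limma adjusted p = 0.00183). Nlrc5, the transactivator of class I genes, was at 2.08, 7.49 and 6.94 TPM untreated, 269 and 267 TPM in the pair and 222 TPM in library 3 (limma adjusted p = 0.00546). Of the nonclassical genes, whose reads are shared between near copies, H2-Q6 was at 0.078, 0.211 and 3.28 TPM untreated, 119 and 127 TPM in the pair and 210.1 TPM in library 3. H2-Q7 was at 0.71, 1.85 and 4.24 TPM untreated, 152 and 169 TPM in the pair and 274 TPM in library 3, and H2-Q7 rose. B2m, the invariant light chain, chosen after its values were seen, was at 295, 448 and 309 TPM untreated, 2105 and 2115 TPM in the pair and 2944 TPM in library 3. B2m rose by 2.85 on the log2 scale (SE 0.27, limma adjusted p = 0.00684, up to 0.0602 without homozygous library 1 or 3). Calls of the list numbered 8, 13 and 8 without homozygous libraries 1, 2 and 3, 15 with the pair alone as treated and 12 with library 3 alone.

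The inducible proteasome rose and the standard one did not pass the test. Psmb8, Psmb9 and Psmb10 are the catalytic subunits that replace the standard subunits under interferon, and Psme2 is part of the activator cap. Psmb10 was at 6.35, 6.35 and 7.61 TPM untreated, 43.3 and 42.3 TPM in the pair and 51.8 TPM in library 3. Psmb10 rose by 2.63 on the log2 scale (SE 0.28, limma adjusted p = 0.00955, up to 0.0709 without homozygous library 1 or 3). Psmb9 was at 0.697, 3.3 and 1.69 TPM untreated, 28.4 and 26.6 TPM in the pair and 41 TPM in library 3. Psmb9 rose by 3.68 on the log2 scale (SE 0.49, limma adjusted p = 0.0196, up to 0.105 without homozygous library 1 or 3). Psmb8 rose by 3.99 (SE 0.54, limma adjusted p = 0.0199, up to 0.103 without homozygous library 1 or 2) and Psme2 by 1.71 (SE 0.21, limma adjusted p = 0.0166, up to 0.1 without homozygous library 1 or 3). Thus 4 of 5 tested inducible genes rose, against 3.44% of all tested genes. Of 14 constitutive genes 0 passed the test in either direction. Psmb6, the standard subunit that Psmb9 replaces, was at 140.3, 159.6 and 146 TPM untreated, 127 and 122 TPM in the pair and 179.9 TPM in library 3. For Psmb6 the log2 fold change was 0.01 (SE 0.21, limma adjusted p = 0.976). Psmb5, replaced by Psmb8 and chosen after its values were seen, was at 34.4, 43.4 and 34.9 TPM untreated, 46.6 and 41.7 TPM in the pair and 50.7 TPM in library 3. For Psmb5 the log2 fold change was 0.33 (SE 0.21, limma adjusted p = 0.359). At an unadjusted p under 0.05 there were 4 of the 14 constitutive genes. Their log2 fold changes ran from -0.71 to 0.55, with a median of -0.13. Samples did not overlap for 4 that were lower and 3 that were higher, against 15.8% and 29.2% of all tested genes. Calls of the inducible list numbered 0, 3 and 1 without homozygous libraries 1, 2 and 3, 4 with the pair alone as treated and 2 with library 3 alone.

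Class II presentation is found in the undisturbed state on macrophages, dendritic cells and B cells. It rose for 8 of 10 tested genes of 13 listed, against 3.44% of all tested genes. H2-Ab1, a class II beta chain, was at 1.91, 3.03 and 4.86 TPM untreated, 472 and 430.5 TPM in the pair and 558 TPM in library 3, so every treated library was far above every untreated one. H2-Eb1 was at 2.86, 3.33 and 3.82 TPM untreated, 361 and 385 TPM in the pair and 544 TPM in library 3. H2-Aa, the alpha chain, was at 2.26, 1.95 and 4.16 TPM untreated, 191 and 194 TPM in the pair and 298 TPM in library 3 (limma adjusted p = 0.00169). Cd74, the invariant chain, was at 5.53, 3.89 and 7.54 TPM untreated, 246 and 242 TPM in the pair and 571 TPM in library 3 (limma adjusted p = 0.00307). Ctss, the protease that trims it, was at 39.5, 40.5 and 43.8 TPM untreated, 310.3 and 314 TPM in the pair and 349 TPM in library 3. Ctss rose by 2.97 on the log2 scale (SE 0.17, limma adjusted p = 0.00145). Ciita, the class II transactivator, chosen after its values were seen, was at 1.41, 1.99 and 0.791 TPM untreated, 19.1 and 18.7 TPM in the pair and 24.9 TPM in library 3. Ciita rose by 3.28 on the log2 scale (SE 0.40, limma adjusted p = 0.0163, up to 0.104 without homozygous library 1 or 3). In bulk tissue, more cells that carry these transcripts and more transcript per cell cannot be told apart, here and in every list below. Calls of the list numbered 5, 7 and 6 without homozygous libraries 1, 2 and 3, 8 with the pair alone as treated and 7 with library 3 alone.

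**Figure D2:**
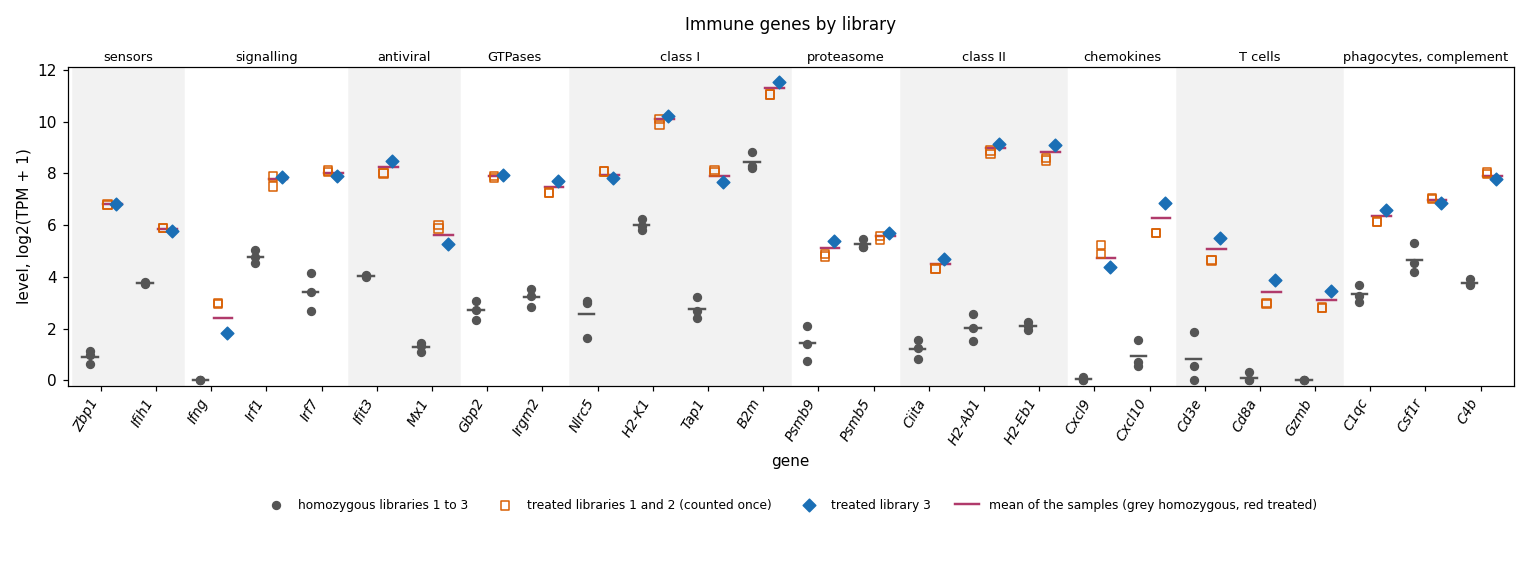
Levels of immune genes in each library as log2(TPM + 1), grouped by role. Points are the 6 libraries and bars the means of the 3 homozygous and 2 treated samples. Both treated samples stand above all homozygous libraries for Zbp1, Gbp2, H2-K1 and H2-Ab1, whereas Psmb5 of the standard proteasome had an adjusted p of 0.359.

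Of 13 tested chemokine genes 4 rose, against 3.44% of all tested genes. Of the 4, Cxcl9, Cxcl10 and Cxcl16 draw activated T cells. Cxcl9, a ligand of the receptor Cxcr3, was at 0, 0.109 and 0 TPM untreated, 36.8 and 28.7 TPM in the pair and 19.6 TPM in library 3, a log2 difference of 4.67. Cxcl10, another, was at 1.92, 0.633 and 0.472 TPM untreated, 50.7 and 51.1 TPM in the pair and 116 TPM in library 3. Cxcl10 differed by 5.35 on the log2 scale. Cxcl16, the ligand of Cxcr6, was at 14.2, 16.3 and 15.8 TPM untreated, 90.0 and 91.6 TPM in the pair and 129.7 TPM in library 3. Cxcl16 rose by 2.74 on the log2 scale (SE 0.24, limma adjusted p = 0.00546). Ccl2, which draws monocytes, was listed at 0 in all homozygous libraries, at 3.08 and 3.02 TPM in the treated pair and at 14.1 TPM in library 3. The list's calls numbered 3, 3 and 3 without homozygous libraries 1, 2 and 3, 6 with the pair alone as treated and 6 with library 3 alone.

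T cell and cytotoxic lymphocyte genes rose for 18 of 28 tested, against 3.44% of all tested genes. Their medians were 2.68 in the pair and 2.79 in library 3. All 28 were higher without overlap, against 29.2% of all tested genes. A gene under 1 TPM in all untreated libraries passes the filter only if every treated library reaches 1 TPM. The lack of overlap of such a gene was fixed in advance. Ptprc, the leukocyte antigen CD45, was at 10.6, 10.7 and 7.06 TPM untreated, 49.4 and 46.7 TPM in the pair and 49.1 TPM in library 3. Ptprc rose by 2.27 on the log2 scale (SE 0.29, limma adjusted p = 0.0177, up to 0.0994 without homozygous library 1, 2 or 3). Trac, the constant region of the T cell receptor alpha chain, was at 0, 0.0845 and 0 TPM untreated, 6.0 and 11.6 TPM in the pair and 23.1 TPM in library 3, a log2 difference of 3.90. Cxcr6, a homing receptor of tissue-resident T cells, was at 0.124, 0.513 and 0 TPM untreated, 9.57 and 9.4 TPM in the pair and 10.2 TPM in library 3, a log2 difference of 3.18. Cd6, a costimulatory receptor, was at 0, 0.112 and 0 TPM untreated, 7.46 and 7.13 TPM in the pair and 6.52 TPM in library 3. Among defining genes given to check the cell type, Cd3e was at 2.71, 0.48 and 0 TPM untreated, 24.4 and 23.7 TPM in the pair and 44.5 TPM in library 3. Cd8a was at 0, 0 and 0.243 TPM untreated, 6.94 and 6.7 TPM in the pair and 13.8 TPM in library 3. Cd4 was at 0.606, 1.63 and 1.19 TPM untreated, 13.3 and 13 TPM in the pair and 28.9 TPM in library 3. Library 3 was above the pair for all 3. Cd3d was listed at 0 in 5 libraries and at 3.77 TPM in library 3. Gzmb, the granzyme of killer cells, was listed at 0 in all homozygous libraries, at 6.07 and 5.97 TPM in the pair and at 9.84 TPM in library 3. Of 33 listed genes 5 did not pass the filter on low values, and 7 of the 20 chemokine genes measured did not, so the counts of both lists are descriptions. T cell calls numbered 2, 1 and 0 without homozygous libraries 1, 2 and 3, 24 with the pair alone as treated and 12 with library 3 alone.

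Some phagocyte genes rose as well. Of 23 macrophage and microglia genes 7 rose, against 3.44% of all tested genes. Of the 7, C1qa, C1qb and C1qc encode the chains of the first complement component and Csf1r the receptor for macrophage growth factor. C1qc was at 8.67, 11.9 and 7.25 TPM untreated, 68.7 and 69.7 TPM in the pair and 93.7 TPM in library 3. C1qc rose by 3.01 on the log2 scale (SE 0.30, limma adjusted p = 0.00825, up to 0.0581 without homozygous library 1). Csf1r was at 17.1, 38.6 and 22 TPM untreated, 132 and 127 TPM in the pair and 116 TPM in library 3. Csf1r rose by 2.28 on the log2 scale (SE 0.34, limma adjusted p = 0.025, up to 0.123 without homozygous library 1 or 3). C1qa rose by 2.50 (SE 0.26, limma adjusted p = 0.00908, up to 0.0638 without homozygous library 1 or 3) and C1qb by 2.51 (SE 0.29, limma adjusted p = 0.0134, up to 0.0777 without homozygous library 1 or 3). Of the 23 genes 19 had a log2 fold change above 0, with a median of 1.34. Without overlap 17 were higher, against 29.2% of all tested genes. Among the 16 that did not pass the test were 4 markers of resident macrophages, a selection made after their values were seen. Lyve1 was at 4.95, 1.1 and 1.43 TPM untreated, 0.569 and 0.541 TPM in the pair and 0.568 TPM in library 3. Cd163 was at 2.22, 3.22 and 1.7 TPM untreated, 1.61 and 1.55 TPM in the pair and 1.7 TPM in library 3. Mrc1 was at 14.6, 14.8 and 11.1 TPM untreated, 17.7 and 16.8 TPM in the pair and 22.5 TPM in library 3. Mertk was at 42.4, 59 and 56.5 TPM untreated, 34.6 and 32.1 TPM in the pair and 39.8 TPM in library 3. Macrophage calls numbered 0, 5 and 1 without homozygous libraries 1, 2 and 3, 9 with the pair alone as treated and 3 with library 3 alone.

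Complement genes rose for 8 and fell for 1 of 15 tested, against 3.44% and 0.965% of all tested genes. C4b was at 11.8, 12.1 and 14 TPM untreated, 261 and 252 TPM in the pair and 217 TPM in library 3. C4b rose by 4.12 on the log2 scale (SE 0.20, limma adjusted p = 0.00107). The classical protease C1ra rose by 2.97 (SE 0.42, limma adjusted p = 0.0217, up to 0.102 without homozygous library 1, 2 or 3), factor B gene Cfb by 2.96 (SE 0.40, limma adjusted p = 0.0196, up to 0.115 without homozygous library 1, 2 or 3) and the inhibitor Serping1 by 2.12 (SE 0.24, limma adjusted p = 0.0117, up to 0.0695 without homozygous library 1 or 3). Cd59a, which protects cells from the membrane attack complex, was at 202, 201.5 and 222 TPM untreated, 77.8 and 77.6 TPM in the pair and 116 TPM in library 3. Cd59a fell by 1.13 on the log2 scale (SE 0.21, limma adjusted p = 0.0416, up to 0.189 without homozygous library 1, 2 or 3). Treated and untreated values of Cd59a did not overlap, and the pair was lower than library 3. Calls of higher genes numbered 1, 2 and 3 without homozygous libraries 1, 2 and 3, 8 with the pair alone as treated and 2 with library 3 alone.

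B cell and granulocyte genes did not pass the test. Ighm, the heavy chain of immunoglobulin M, was at 36, 46.3 and 29.5 TPM untreated, 76.6 and 74.1 TPM in the pair and 57.9 TPM in library 3 (limma adjusted p = 0.107). Igkc was at 6.49, 10.1 and 2.44 TPM untreated, 24.4 and 24.2 TPM in the pair and 17.7 TPM in library 3 (limma adjusted p = 0.108). Pax5 was at 2.81, 11.8 and 0.329 TPM untreated, 18.5 and 18.2 TPM in the pair and 9.34 TPM in library 3 (limma adjusted p = 0.256). By limma 0 of 8 B cell genes and 0 of 13 neutrophil genes passed, with 2 and 2 at an unadjusted p under 0.05. S100a9, with the lowest log2 fold change of the neutrophil list at -1.09, was at 94.5, 329 and 28.9 TPM untreated, 34.8 and 34.4 TPM in the pair and 58.6 TPM in library 3. Ltf was at 16.3, 94.3 and 7.71 TPM untreated, 31.5 and 30.5 TPM in the pair and 58 TPM in library 3. Ngp was at 7.48, 49.3 and 2.61 TPM untreated, 42.3 and 43.6 TPM in the pair and 44.9 TPM in library 3. Homozygous library 2 held the most of all 6 libraries for these 3 genes.

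Of 17 NF-kB and adhesion genes 3 rose, against 3.44% of all tested genes. By limma 15 had an unadjusted p under 0.05, and all 17 had a log2 fold change above 0, with a median of 1.31. Icam1, the adhesion molecule that leukocytes grip, was at 5.55, 4.94 and 2.9 TPM untreated, 29.3 and 26.9 TPM in the pair and 34.1 TPM in library 3. Icam1 rose by 2.58 on the log2 scale (SE 0.37, limma adjusted p = 0.0217, up to 0.109 without homozygous library 1, 2 or 3). Nfkb2 was at 14.7, 17.7 and 14.3 TPM untreated, 49.1 and 46.2 TPM in the pair and 55.1 TPM in library 3. Nfkb2 rose by 1.66 on the log2 scale (SE 0.24, limma adjusted p = 0.0217, up to 0.133 without homozygous library 1, 2 or 3). Ltb, a lymphotoxin gene, was at 0, 0.406 and 0 TPM untreated, 6.22 and 6.2 TPM in the pair and 4.86 TPM in library 3, a log2 difference of 2.54. Of 15 genes of inflammasomes and lytic death 2 rose, against 3.44% of all tested genes. Mlkl, the pore protein of necroptosis, was at 3.72, 3.33 and 3.34 TPM untreated, 17.1 and 16.5 TPM in the pair and 16 TPM in library 3. Mlkl rose by 1.96 on the log2 scale (SE 0.33, limma adjusted p = 0.0331, up to 0.17 without homozygous library 1, 2 or 3). Casp4, the sensor of cytosolic lipopolysaccharide, was at 1.34, 1.37 and 1.63 TPM untreated, 8.75 and 5.42 TPM in the pair and 7.5 TPM in library 3. Casp4 rose by 1.76 on the log2 scale (SE 0.36, limma adjusted p = 0.0494, up to 0.22 without homozygous library 1, 2 or 3 or treated library 1). Of 9 endogenous deaminase and base repair genes 2 rose, against the same 3.44%. Adar, which edits adenosine in double-stranded RNA, was at 39.2, 45.9 and 54.7 TPM untreated, 163 and 158 TPM in the pair and 121 TPM in library 3. Adar rose by 1.57 on the log2 scale (SE 0.23, limma adjusted p = 0.0224, up to 0.132 without homozygous library 1, 2 or 3). Apobec3, an antiviral cytidine deaminase, was at 23.1, 43.6 and 26.8 TPM untreated, 88.5 and 77 TPM in the pair and 92.2 TPM in library 3. Apobec3 rose by 1.51 on the log2 scale (SE 0.30, limma adjusted p = 0.0446, up to 0.189 without homozygous library 1 or 3 or treated library 1 or 3).

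**Figure D3:**
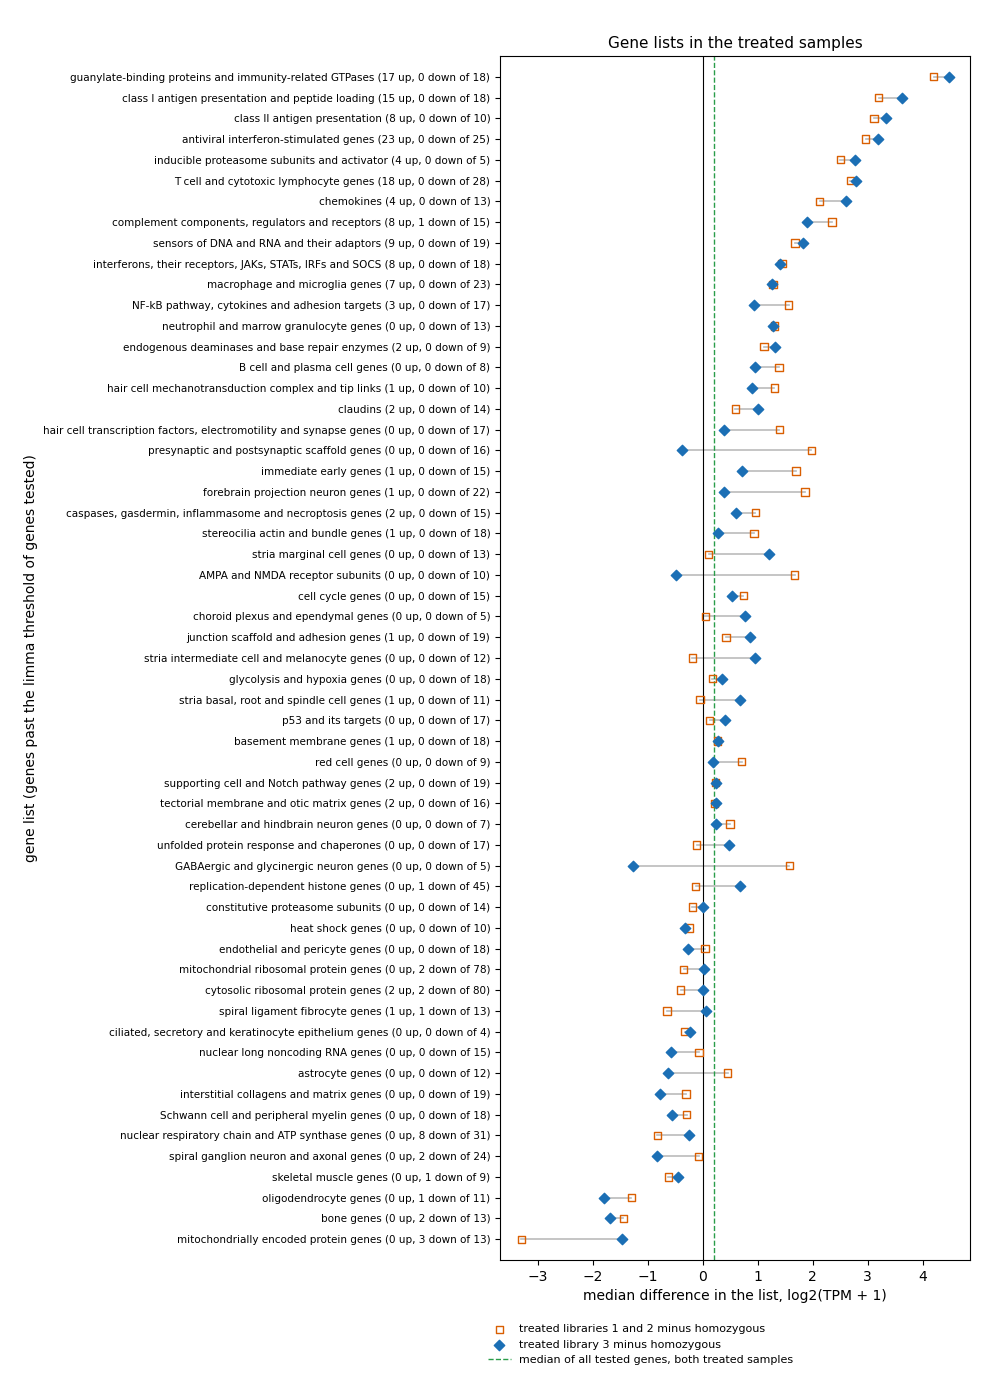
Median difference from the homozygous libraries on the log2(TPM + 1) scale for each of 57 gene lists, sex-linked genes left out, for the treated pair (squares) and library 3 (diamonds) apart. Row labels give how many tested genes passed the limma threshold in each direction with both treated samples, and the dashed line is the median of all genes at 0.20. GTPase, antigen presentation and antiviral lists have the highest medians in both samples, up to 4.47.

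Targets of p53, which responds to DNA breaks, did not pass the test for any of 17 genes. Cdkn1a, the cell cycle brake that p53 induces, was at 50.5, 65.4 and 42.7 TPM untreated, 52.7 and 49.8 TPM in the pair and 112 TPM in library 3 (limma adjusted p = 0.387). Mdm2, the ubiquitin ligase of p53, was at 61, 96.4 and 75.6 TPM untreated, 64.4 and 62.3 TPM in the pair and 41 TPM in library 3 (limma adjusted p = 0.244). Ei24 was at 129, 200.7 and 143 TPM untreated, 268 and 267 TPM in the pair and 220.4 TPM in library 3 (limma adjusted p = 0.147). By limma 0 of 17 genes of the unfolded protein response and 0 of 10 heat shock genes passed, and 3 p53, 6 unfolded protein response and 2 heat shock genes had an unadjusted p under 0.05. The endoplasmic reticulum chaperone Hspa5 was at 508, 582 and 459 TPM untreated, 826 and 755 TPM in the pair and 1008 TPM in library 3 (limma adjusted p = 0.0785). Of 15 immediate early genes 1 rose, against 3.44% of all tested genes. Junb, an AP-1 factor, was at 5.83, 10.5 and 6.34 TPM untreated, 38.6 and 38.3 TPM in the pair and 43.1 TPM in library 3. Junb rose by 2.32 on the log2 scale (SE 0.34, limma adjusted p = 0.0225, up to 0.129 without homozygous library 1 or 3).

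Mpzl2 itself gave no call. The mouse gene's row was at 17.4, 24 and 13.1 TPM untreated, 5.64 and 5.62 TPM in the pair and 16.3 TPM in library 3. For Mpzl2 the log2 fold change was -0.80 (SE 0.49, limma adjusted p = 0.335). The sources used here do not say how reads of the humanized allele were counted. The treated pair lay below every homozygous library and library 3 lay among them. Its relative Mpzl1 was at 210.1, 188 and 209.6 TPM untreated, 210.5 and 195 TPM in the pair and 264 TPM in library 3. For Mpzl1 the log2 fold change was 0.19 (SE 0.19, limma adjusted p = 0.541). Mpzl3, another relative, was at 8.82, 12.1 and 9.43 TPM untreated, 9.06 and 8.22 TPM in the pair and 19.1 TPM in library 3. For Mpzl3 the log2 fold change was 0.34 (SE 0.41, limma adjusted p = 0.631). TPM give no base-level reads, so editing of the variant was not measured here.

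Hair cells, the sensory cells of the organ of Corti, were read through 3 lists, in which 2 of 45 tested genes rose and 0 fell, a share near the 3.44% of all tested genes that rose. Ush1c, the scaffold harmonin at the upper end of tip links, was at 19.4, 21.2 and 26.3 TPM untreated, 68.5 and 73.6 TPM in the pair and 54.2 TPM in library 3. Ush1c rose by 1.45 on the log2 scale (SE 0.24, limma adjusted p = 0.0331, up to 0.17 without homozygous library 1, 2 or 3). Triobp, which bundles the rootlets of stereocilia, was at 45.2, 41.4 and 42 TPM untreated, 108 and 99.7 TPM in the pair and 97.3 TPM in library 3. Triobp rose by 1.21 on the log2 scale (SE 0.17, limma adjusted p = 0.0223, up to 0.132 without homozygous library 1, 2 or 3). Identity and synapse genes gave 0 of 17 calls by limma, with 9 at an unadjusted p under 0.05. Calb2, a calcium buffer of inner hair cells and neurons, was at 1707, 1022 and 2077 TPM untreated, 565 and 564 TPM in the pair and 591 TPM in library 3. For Calb2 the log2 fold change was -1.41 (SE 0.33, limma adjusted p = 0.0603). Myo6, the motor at the base of stereocilia, was at 367, 367 and 307 TPM untreated, 176 and 176 TPM in the pair and 224 TPM in library 3. For Myo6 the log2 fold change was -0.80 (SE 0.19, limma adjusted p = 0.0654). Ocm, the calcium buffer of outer hair cells, was at 89, 166 and 158 TPM untreated, 222 and 137 TPM in the pair and 194 TPM in library 3. For Ocm the log2 fold change was 0.49 (SE 0.29, limma adjusted p = 0.332). The medians of the transduction list were 1.30 in the pair and 0.89 in library 3, and those of the bundle list were 0.93 in the pair and 0.27 in library 3. For the identity list they were 1.39 in the pair and 0.39 in library 3. Each median was higher in the pair, which also held the brain genes above, and their part in it was not tested.

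Supporting cell, tectorial and junction genes gave a few higher calls. Lfng, a modifier of Notch receptors, was at 18.2, 20.0 and 25.1 TPM untreated, 77.3 and 68.6 TPM in the pair and 66.1 TPM in library 3. Lfng rose by 1.68 on the log2 scale (SE 0.23, limma adjusted p = 0.0199, up to 0.127 without homozygous library 1, 2 or 3). Epha7, an ephrin receptor, was at 56.1, 58.4 and 55.8 TPM untreated, 104 and 90.4 TPM in the pair and 103 TPM in library 3. Epha7 rose by 0.81 on the log2 scale (SE 0.17, limma adjusted p = 0.0494, up to 0.221 without homozygous library 1, 2 or 3 or treated library 1). Otog, a protein of the acellular membranes over the hair cells, was at 18.3, 16.9 and 30.7 TPM untreated, 98.2 and 90.8 TPM in the pair and 87.9 TPM in library 3. Otog rose by 2.05 on the log2 scale (SE 0.29, limma adjusted p = 0.0223, up to 0.129 without homozygous library 1 or 2). Ceacam16, which shapes the tectorial membrane, was at 231, 222 and 289.9 TPM untreated, 663 and 671 TPM in the pair and 492 TPM in library 3. Ceacam16 rose by 1.21 on the log2 scale (SE 0.22, limma adjusted p = 0.0375, up to 0.191 without homozygous library 1, 2 or 3). The other tested genes of these lists, 17 of 19 supporting cell and 14 of 16 matrix genes, did not pass. Over all tested genes 3.44% rose. Agrn, a basement membrane proteoglycan, was at 54.3, 52.8 and 55.2 TPM untreated, 142 and 132 TPM in the pair and 126 TPM in library 3. Agrn rose by 1.27 on the log2 scale (SE 0.17, limma adjusted p = 0.0186, up to 0.127 without homozygous library 1, 2 or 3).

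Tight junctions separate the fluids of the cochlea. Here 2 of 14 claudins and 1 of 19 other junction genes rose, against 3.44% of all tested genes. Cldn3 was at 13.5, 15.6 and 12 TPM untreated, 83.2 and 82.6 TPM in the pair and 79.6 TPM in library 3. Cldn3 rose by 2.49 on the log2 scale (SE 0.23, limma adjusted p = 0.00608). The call held with each of the 6 libraries left out. Cldn9, a claudin of the sensory epithelium, was at 37.6, 47 and 39.6 TPM untreated, 111 and 108 TPM in the pair and 172 TPM in library 3. Cldn9 rose by 1.71 on the log2 scale (SE 0.25, limma adjusted p = 0.0224, up to 0.132 without homozygous library 1, 2 or 3). Tjp3, the scaffold ZO-3, was at 8.03, 7.75 and 5.57 TPM untreated, 34.9 and 35.5 TPM in the pair and 32.2 TPM in library 3. Tjp3 rose by 2.11 on the log2 scale (SE 0.30, limma adjusted p = 0.0223, up to 0.126 without homozygous library 1, 2 or 3). For Cldn3 and Tjp3 the pair and library 3 were close to each other.

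The lateral wall, whose stria vascularis makes the potassium-rich endolymph, gave few calls, and the pair and library 3 pulled apart there. Marginal cell genes gave 0 of 13 calls by limma, with 0 at an unadjusted p under 0.05, and medians of 0.11 in the pair and 1.2 in library 3. Slc12a2, a cotransporter of sodium, potassium and chloride, was at 742, 1156 and 613 TPM untreated, 392 and 369 TPM in the pair and 844 TPM in library 3. Lrp2, an endocytic receptor, was at 334, 717 and 300.2 TPM untreated, 569 and 568 TPM in the pair and 982 TPM in library 3. Homozygous library 2 exceeded the other homozygous libraries for both genes, and at least 1 of the 2 treated samples lay within the untreated range each time. Dct, a melanin enzyme of intermediate cells, was at 508, 1027 and 398 TPM untreated, 489.7 and 498 TPM in the pair and 1080.3 TPM in library 3 (limma adjusted p = 0.728). P2rx2, an ATP-gated channel, rose by 1.06 (SE 0.21, limma adjusted p = 0.0453, up to 0.213 without homozygous library 1, 2 or 3). Among fibrocyte genes Tgfbi, a matrix protein, was at 36.1, 34.3 and 45.2 TPM untreated, 134 and 126 TPM in the pair and 129 TPM in library 3. Tgfbi rose by 1.73 on the log2 scale (SE 0.20, limma adjusted p = 0.0124, up to 0.0976 without homozygous library 1 or 3). Otos, the secreted protein otospiralin, was at 3476, 3126 and 2384 TPM untreated, 808 and 779.5 TPM in the pair and 1095 TPM in library 3. Otos fell by 1.67 on the log2 scale (SE 0.29, limma adjusted p = 0.0346, up to 0.186 without homozygous library 1, 2 or 3).

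**Figure D4:**
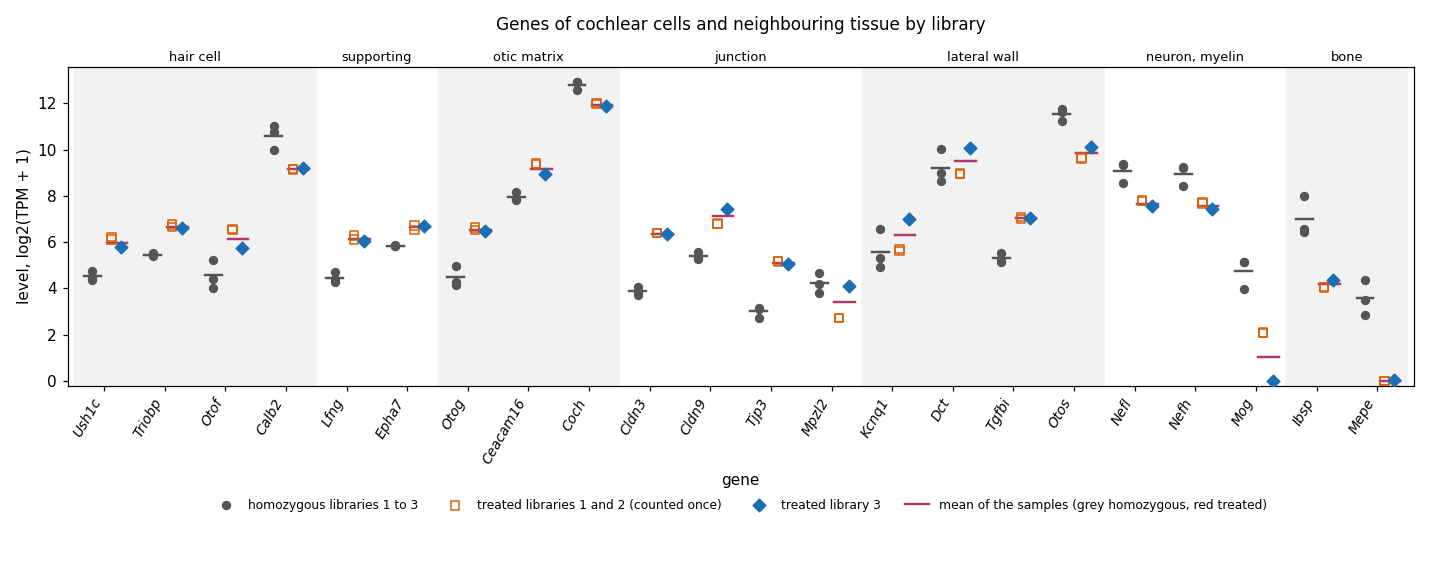
Levels of genes of cochlear cells and of bone in each library as log2(TPM + 1). Points are the 6 libraries and bars the means of the 3 homozygous and 2 treated samples. Cldn3, Lfng and Tgfbi stand above and Otos, Ibsp and Nefl below the homozygous libraries in both treated samples, whereas Mpzl2 overlaps in library 3.

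Neuronal, myelin and bone genes gave lower calls. Among 24 spiral ganglion genes 2 neurofilament genes fell, against 0.965% of all tested genes. Nefl, the light chain, was at 654, 376 and 640.1 TPM untreated, 221 and 217 TPM in the pair and 187 TPM in library 3. Nefl fell by 1.41 on the log2 scale (SE 0.28, limma adjusted p = 0.0464, up to 0.201 without homozygous library 1 or 3 or treated library 3). Nefh, the heavy chain, was at 598, 345 and 592 TPM untreated, 211 and 202 TPM in the pair and 172 TPM in library 3. Nefh fell by 1.39 on the log2 scale (SE 0.28, limma adjusted p = 0.049, up to 0.204 without homozygous library 1 or 3 or treated library 2 or 3). Peripheral myelin gave 0 of 18 calls by limma, with 5 at an unadjusted p under 0.05. Mog, of central myelin, was at 34, 14.7 and 34 TPM untreated, 3.29 and 3.25 TPM in the pair and 0 TPM in library 3. Mog fell by 3.70 on the log2 scale (SE 0.70, limma adjusted p = 0.0415, up to 0.189 without homozygous library 1, 2 or 3). In the bone list all 13 tested genes lay below 0, with a median of -1.63, and 2 fell, against 0.965% of all tested genes. Ibsp, a mineral-binding protein, was at 86, 253 and 92.8 TPM untreated, 15.5 and 15.7 TPM in the pair and 19.5 TPM in library 3. Ibsp fell by 2.79 on the log2 scale (SE 0.47, limma adjusted p = 0.0332, up to 0.115 without homozygous library 1 or 3). Mepe, an osteocyte gene, was at 10.5, 19.4 and 6.31 TPM in the homozygous libraries, listed at 0 in the treated pair and at 0.0168 TPM in library 3. How much nerve, bone or wall tissue entered each dissection is not given, and its part in these values was not tested.

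Brain genes differed between the treated pair and library 3 in part. The median log2 difference of 16 synaptic scaffold genes was 1.97 in the pair, against 0.29 for all tested genes. In library 3 it was -0.37, against 0.09 for all tested genes. The summed level of the synaptic genes was 1027, 795 and 1147 TPM in the homozygous libraries, 2804 and 2799 TPM in the treated pair and 679 TPM in library 3. Slc30a3, a zinc transporter of cortical terminals, was the 1 forebrain gene called with both samples, and it was listed at 0 in the homozygous libraries, at 14.4 and 14.1 TPM in the pair and at 4.84 TPM in library 3. Slc1a2, the glutamate transporter of astrocytes, was at 123, 137 and 137 TPM untreated, 1229 and 1236 TPM in the pair and 174 TPM in library 3. Pvalb, on the list of GABAergic neuron genes, was at 222, 131 and 227 TPM untreated, 81.9 and 88 TPM in the pair and 109 TPM in library 3. Which cells of the labyrinth gave Pvalb was not tested. The summed forebrain level of library 3, given above, also exceeded that of every untreated library. Neurod6, a defining gene of cortical neurons, was listed at 0 in all untreated libraries and in library 3 and stood at 6.25 and 6.0 TPM in the pair. Sst, of inhibitory neurons, was listed at 0 in the same libraries and stood at 16.5 and 16.1 TPM in the pair. Cerebellar and hindbrain genes gave 0 of 7 calls in the test with both samples.

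For 2642 of 17102 genes the pair and library 3 lay on opposite sides of all 3 homozygous libraries, 1749 with the pair above and 893 with library 3 above. Gria1, an AMPA receptor subunit, was at 2.86, 0.423 and 2.54 TPM untreated, 99.2 and 94 TPM in the pair and 0.214 TPM in library 3. Vgf, a neuronal secreted peptide precursor, was at 1.13, 0.249 and 0.362 TPM untreated, 46.1 and 45.9 TPM in the pair and 0.21 TPM in library 3. Otud7a, a deubiquitinase, was at 22.5, 14.3 and 12.5 TPM untreated, 162 and 185 TPM in the pair and 2.53 TPM in library 3. The reverse held for Aqp5, a water channel, at 8.84, 15.1 and 10.3 TPM untreated, 0 and 0 TPM in the pair and 35.3 TPM in library 3. Fam167b showed the same order, at 9.7, 10.1 and 3.73 TPM untreated, 0 and 0 TPM in the pair and 37.7 TPM in library 3. Other genes with the widest gaps were Syt17, Ndst4, Vstm2b, Kcnt2 and Celf5. For such genes a mean of the treated libraries describes neither sample.

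Mitochondrially encoded genes were lower, unequally among themselves. Their share of all TPM was 13.6%, 10.7% and 13.4% untreated, 2.17% and 2.22% in the pair and 6.16% in library 3. The exact two-sided permutation test gave p = 0.1, the smallest that 3 against 2 samples allow. By gene 3 of 13 fell, against 0.965% of all tested genes. mt-Nd6, the only protein encoded on the light strand, was at 9937, 5908 and 9183 TPM untreated, 239 and 237 TPM in the pair and 1256 TPM in library 3. mt-Nd6 fell by 3.89 on the log2 scale (SE 0.68, limma adjusted p = 0.0357, up to 0.168 without homozygous library 1, 2 or 3). Another complex I gene, mt-Nd4, was at 7387, 4946 and 5766 TPM untreated, 316 and 319 TPM in the pair and 1228 TPM in library 3. mt-Nd4 fell by 3.25 on the log2 scale (SE 0.57, limma adjusted p = 0.0351, up to 0.168 without homozygous library 1, 2 or 3). One more, mt-Nd2, was at 4254, 2865 and 3508 TPM untreated, 113 and 114 TPM in the pair and 633 TPM in library 3. mt-Nd2 fell by 3.70 on the log2 scale (SE 0.67, limma adjusted p = 0.0379, up to 0.172 without homozygous library 1, 2 or 3). Library 3 exceeded every untreated library for mt-Co1, chosen after its values were seen, which was at 16604, 18201 and 18982 TPM untreated, 11963 and 11815 TPM in the pair and 24308 TPM in library 3. For mt-Co1 the log2 fold change was -0.07 (SE 0.56, limma adjusted p = 0.946). The median log2 difference of the 13 genes was -3.30 in the pair and -1.47 in library 3.

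Nuclear genes of the respiratory chain gave 8 lower and 0 higher calls among 31 tested, against 0.965% and 3.44% of all tested genes. Ndufa5, of complex I, was at 298, 254 and 245 TPM untreated, 33.6 and 33.1 TPM in the pair and 70.3 TPM in library 3. Ndufa5 fell by 2.42 on the log2 scale (SE 0.31, limma adjusted p = 0.0186, up to 0.109 without homozygous library 1, 2 or 3). Uqcrb, of complex III, was at 248, 200.2 and 160.0 TPM untreated, 43.9 and 43.3 TPM in the pair and 63.2 TPM in library 3. Uqcrb fell by 1.91 on the log2 scale (SE 0.26, limma adjusted p = 0.0199, up to 0.109 without homozygous library 1, 2 or 3). Ndufa4 was at 88.4, 77.6 and 82.7 TPM untreated, 12.5 and 13.5 TPM in the pair and 25.4 TPM in library 3. Ndufa4 fell by 2.12 on the log2 scale (SE 0.30, limma adjusted p = 0.0212, up to 0.132 without homozygous library 1, 2 or 3). Cox5a, of complex IV, was at 106, 114 and 99.2 TPM untreated, 21.5 and 24.1 TPM in the pair and 40.5 TPM in library 3. Cox5a fell by 1.77 on the log2 scale (SE 0.27, limma adjusted p = 0.025, up to 0.137 without homozygous library 1, 2 or 3). The pair was lower than library 3 for all 4, and the medians were -0.83 in the pair and -0.26 in library 3. Lower calls numbered 0, 0 and 0 without homozygous libraries 1, 2 and 3. These transcripts are short, with a median length of 1697 bases against 3161 for all tested genes. Of the genes that fell, 47 lay in the shortest of 5 equal bins of length and 17 in the longest. Of the genes that rose, 109 lay in the shortest bin and 91 in the longest. The median log2 fold change of the bins ran from 0.12 in the shortest to 0.24 in the middle bin and was 0.17 in the longest. The part of transcript length in these calls was not tested.

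**Figure D5:**
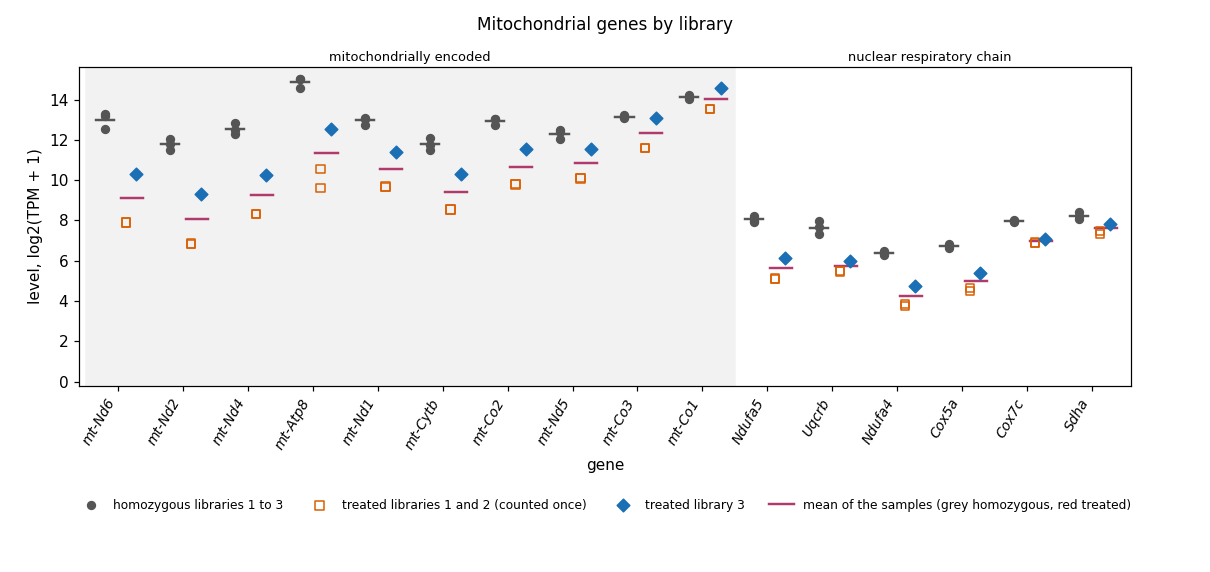
Levels of mitochondrially encoded genes and of nuclear genes of the respiratory chain in each library as log2(TPM + 1). Points are libraries and bars the means of the samples. The gap from the homozygous libraries is widest for mt-Nd6, with a log2 fold change of -3.89, and near 0 for mt-Co1, and the treated pair lies below library 3 for every gene drawn.

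Among the genes with the widest fall outside the lists was Mpc2, a subunit of the mitochondrial pyruvate carrier, at 148, 165 and 199 TPM untreated, 18.3 and 24.7 TPM in the pair and 30.1 TPM in library 3. Mpc2 fell by 2.69 on the log2 scale (SE 0.23, limma adjusted p = 0.00526). Its call held in all 6 fits with 1 library left out. Cox17, a copper chaperone of complex IV, was at 134, 89.5 and 96.1 TPM untreated, 6.49 and 12.2 TPM in the pair and 25.7 TPM in library 3. Cox17 fell by 2.67 on the log2 scale (SE 0.42, limma adjusted p = 0.0271, up to 0.138 without homozygous library 1, 2 or 3). Atp5k, a subunit of ATP synthase, was at 23.3, 12.5 and 23.3 TPM untreated, 1.48 and 1.48 TPM in the pair and 3.25 TPM in library 3. Atp5k fell by 2.62 on the log2 scale (SE 0.44, limma adjusted p = 0.0331, up to 0.181 without homozygous library 1, 2 or 3). Sh3bgr was at 71, 55.4 and 49.9 TPM untreated, 0.11 and 0.102 TPM in the pair and 8.04 TPM in library 3. The log2 difference of Sh3bgr was -4.23. Klk6, a serine protease, was at 38.6, 10.1 and 32 TPM in the homozygous libraries and listed at 0 in all treated ones. Pin4 was at 28, 28.4 and 21.5 TPM untreated, 0.79 and 0.553 TPM in the pair and 3.73 TPM in library 3. The log2 difference of Pin4 was -3.25. A2ml1 was at 35.2, 11.4 and 15 TPM untreated, 0.0749 and 0.0692 TPM in the pair and 2.1 TPM in library 3. The log2 difference of A2ml1 was -3.40. Smim26 was at 12.2, 17.1 and 13.3 TPM untreated, 0 and 0 TPM in the pair and 0.747 TPM in library 3, a log2 difference of -3.51.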

How the data were processed

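The values analysed are TPM, one column per library, in the table of 25606 rows that the authors deposited for the homozygous and treated libraries. The submitters' processing notes name kallisto 0.51.0, DESeq with no version and GRCm39 as genome build, and the labels' protocols name a stranded total RNA kit. Groups came from sample titles, because the genotype field counts upward from sample to sample. TPM carry no depth, so no count model, interval or detection floor was used.

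Rows of repeated symbols were added together, which left 25579 symbols, and the 17102 genes at 1 TPM or more in at least 3 libraries were tested. The test was limma (version 3.58.1, R version 4.3.3) on log2(TPM + 1) with a mean-variance trend, two-sided, with Benjamini-Hochberg adjustment over all tested genes. Treated libraries 1 and 2 entered as their mean, so 3 samples were compared with 2, and p-values measure only the spread between these samples, which may be technical. In simulated data for this comparison, over 17102 genes, the test found 31 of 50 genes changed by 1 on the log2 scale. It found 48 of 50 changed by 2, with 5 false calls in all. All simulated samples took their noise from the homozygous libraries. The SD of log2 ratios was 0.52 to 0.68 between those libraries and 1.37 between either library of the pair and library 3. These rates therefore do not cover the spread of the treated samples.

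The members, the rules and the 58 gene lists were chosen with earlier results of these data known. Named genes were up to 4 called genes per list and direction with the smallest p and no overlap between samples, or the 3 of highest mean in a list without any. To these came up to 15 per direction with the largest change, up to 10 on opposite sides, the Mpzl genes, and defining genes of cell types to check a label. Results of 4 genes that the rule named are not reported here. The text marks other genes as picked once values were known. Promoters are RefSeq windows of GRCm38.p6 matched by symbol. Lengths are those of the longest transcript in GENCODE M21, found for 97.3% of tested genes. Alternatives covered the pseudocount, the filter, scaling, the variance model, the treated samples, the replicate block and each library left out.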

Additional observations from a re-analysis of the deposited data

How the results depend on the processing

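The counts of 589 higher and 165 lower genes moved with the filter and the samples used. With no filter on low values they were 127 and 7, with the 3 treated libraries as 3 samples 2554 and 1009, and with library 3 as the only treated sample 180 and 42. Without a mean-variance trend 73 genes fell. With 1 library left out, higher genes ranged from 62 to 2249 and lower genes from 1 to 735. Of the 589, 60, 149 and 67 remained called without homozygous libraries 1, 2 and 3. Deviations of same-numbered libraries from their group means correlated at 0.03, -0.15 and -0.12, and no library correlated best with its own number. Because treated libraries 1 and 2 were near-identical, these correlations cannot tell whether the replicate numbers pair the samples. A fit of all 6 libraries with the number as a block gave 1127 and 358, against 2554 and 1009 for those libraries without it. Of 102 named genes called, 33 held in all 6 fits with a library left out, and 7 lost the call after median-of-ratios scaling. With that scaling the median of 1 gene list changed sign, that of GABAergic neurons, from 0.15 to -0.03, and with mitochondrial genes left out of the total 0 did. The causes were not tested. With 2 treated samples and unknown depth, a gene that misses the threshold is not shown to be unchanged.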

Other observations

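Genes of the translation machinery and of chromatin were not described above. Among 80 cytosolic ribosomal protein genes 2 rose and 2 fell, against 3.44% and 0.965% of all tested genes. Rps2 was at 155, 227 and 182 TPM untreated, 471 and 517 TPM in the pair and 469 TPM in library 3. Rps2 rose by 1.37 on the log2 scale (SE 0.21, limma adjusted p = 0.0254, up to 0.139 without homozygous library 1 or 3). Rpl38 was at 192, 173 and 141 TPM untreated, 54.3 and 52.9 TPM in the pair and 83.4 TPM in library 3. Rpl38 fell by 1.31 on the log2 scale (SE 0.25, limma adjusted p = 0.0418, up to 0.195 without homozygous library 1, 2 or 3). Rps21 was at 101, 75.1 and 60.6 TPM untreated, 18.9 and 18.3 TPM in the pair and 28.7 TPM in library 3. Rps21 fell by 1.70 on the log2 scale (SE 0.30, limma adjusted p = 0.0355, up to 0.168 without homozygous library 1, 2 or 3). Many processed copies of ribosomal genes share their sequence, so these values are uncertain. Among 78 mitochondrial ribosomal protein genes 2 fell. Mrpl33 was at 35.6, 33 and 20.7 TPM untreated, 9.1 and 9.03 TPM in the pair and 6.44 TPM in library 3. Mrpl33 fell by 1.80 on the log2 scale (SE 0.34, limma adjusted p = 0.0418, up to 0.206 without homozygous library 1, 2 or 3). Mrpl42 was at 72.5, 55 and 48.9 TPM untreated, 15.7 and 14.9 TPM in the pair and 24.1 TPM in library 3. Mrpl42 fell by 1.55 on the log2 scale (SE 0.28, limma adjusted p = 0.04, up to 0.189 without homozygous library 1, 2 or 3). Of 45 replication-dependent histone genes 1 was called, H4c18, at 17.4, 35.7 and 8.55 TPM in the homozygous libraries and listed at 0 in the treated ones.

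Malat1, a nuclear long noncoding RNA, was at 25734, 22295 and 21924 TPM untreated, 9142 and 9725 TPM in the pair and 8821 TPM in library 3. For Malat1 the log2 fold change was -1.35 (SE 0.48, limma adjusted p = 0.142). Matrix genes of the connective tissue gave 0 of 19 calls by limma, with 6 at an unadjusted p under 0.05, and Sparc, their most abundant gene, was at 3762, 3698 and 3190.1 TPM untreated, 1523 and 1497 TPM in the pair and 2069.6 TPM in library 3 (limma adjusted p = 0.0882). Endothelial and pericyte genes gave 0 of 18 calls by limma, with 4 at an unadjusted p under 0.05, and a median log2 fold change of -0.15. Cell cycle genes gave 0 of 15 calls by limma, with 5 at an unadjusted p under 0.05, and Pcna was at 63.1, 69.6 and 61.6 TPM untreated, 33 and 32.1 TPM in the pair and 46.9 TPM in library 3 (limma adjusted p = 0.107). The alpha globin gene Hba-a1 was at 285, 759 and 81.5 TPM untreated, 295 and 309 TPM in the pair and 367 TPM in library 3, so homozygous library 2 held the highest level among its group. Tnnc2, of skeletal muscle, was at 2.6, 4.6 and 3.27 TPM in the homozygous libraries and listed at 0 in the treated ones.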
